A study of Mus musculus with 18 samples.

Results

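The regions described here are places in thymocyte chromatin that held called peaks of the cohesin subunit SMC1A but no peak of CTCF. They were chosen by merging the 4 deposited SMC1A peak lists on chromosomes 1 to 19, where peaks overlapped by 1 bp or more, and by keeping merged regions that held peaks of at least 2 SMC1A lists and overlapped no peak of any of 3 CTCF lists. This gave 367 regions, which is 1.07% of all 34329 merged SMC1A regions and 1.66% of the 22062 regions found in at least 2 SMC1A lists. The other 21695 regions of at least 2 lists overlapped a CTCF peak and serve as the comparison. Because SMC1A and CTCF peaks chose the regions, the lists that hold them, their fold enrichment against other regions and their width are given as descriptions. The KO minus WT difference in fold at regions held by all 4 SMC1A lists was not itself used in the choice. It is the one measure of SMC1A strength that was tested. Of the 3 CTCF lists that chose the regions, 2 were from KO cells, so the choice may still bear on this difference.

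Cohesin is a ring-shaped complex of SMC1A, SMC3, a RAD21 subunit and a STAG subunit that entraps DNA and extrudes loops. CTCF is a zinc-finger DNA-binding protein that stops cohesin at its sites, so that most cohesin peaks in mammalian cells lie on CTCF. Cohesin peaks without CTCF are known from other cell types, where many lie at enhancers and promoters bound by transcription factors and the loading factor NIPBL. SATB1 is a DNA-binding chromatin organiser that is abundant in CD4+CD8+ double-positive (DP) thymocytes, the stage at which T cell receptors are selected.

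Chromatin was profiled by CUT&RUN, in which an antibody tethers a nuclease to its target and the released fragments are sequenced. The cells were primary DP thymocytes sorted from thymus, and all of them are labelled as tamoxifen-treated, the wild types included. Knockout (KO) cells are labelled Satb1 KO, induced by tamoxifen, with 2 SMC1A lists and 2 CTCF lists; wild-type (WT) cells have 2 SMC1A lists and 1 CTCF list. Of the 18 samples in the series, 7 had a peak list that was analysed. The others, among them input, IgG and H3K27ac samples of both genotypes, were not used here. The labels give neither the Cre driver nor the deleted segment of Satb1, and they do not say whether replicates came from separate mice. A p-value here therefore covers the spread among these libraries alone, and that spread may be technical. Replicate 1 is batch 1 and replicate 2 is batch 2 in the labels, in both genotypes. Peak lists hold no expression values, so neither the DP identity nor the loss of Satb1 was checked. In bulk material, fewer cells with bound SMC1A and less SMC1A per cell cannot be told apart.

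The lists differed in length, which bears on what counts as lacking CTCF. The SMC1A lists held 27459 and 20172 peaks in KO cells and 19466 and 20152 in WT cells. CTCF lists held 54222 and 22351 peaks in KO cells and 38222 peaks in WT cells. The longest CTCF list was thus KO replicate 1, and a second WT CTCF list was not analysed here. The lists give no read numbers, so the depth of the libraries is unknown.

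Only a few of the regions without CTCF touched a promoter. Of the 367, 20 lay within 1 kb of an annotated gene start and 10 overlapped a promoter window, here the 250 bases before and 50 bases after a start from RefSeq for GRCm38.p6, which corresponds to mm10. Windows of 4 genes are printed to show the kinds of promoter found. Dennd2d encodes a DENN-domain protein, Rec8 the meiotic kleisin subunit of cohesin, Parvg the adaptor gamma-parvin of blood cells and Ctsz the lysosomal protease cathepsin Z. The first 3 came first by peak strength among the promoter members, and Ctsz was chosen after its sequence had been searched. Capitals mark the GC box GGGCGG and a core of the CTCF motif (CC, any 3 bases, AG, any 2 bases, then GGC), on either strand; the sequences run 5′ to 3′ along the gene.

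Dennd2d promoter, chr3:106482200-106482499, plus strand: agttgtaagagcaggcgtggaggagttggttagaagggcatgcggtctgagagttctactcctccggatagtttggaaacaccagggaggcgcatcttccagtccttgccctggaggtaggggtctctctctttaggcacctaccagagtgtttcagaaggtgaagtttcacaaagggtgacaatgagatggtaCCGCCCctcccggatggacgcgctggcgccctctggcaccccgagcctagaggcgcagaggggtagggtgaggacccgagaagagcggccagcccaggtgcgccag
Rec8 promoter, chr14:55617916-55618215, plus strand: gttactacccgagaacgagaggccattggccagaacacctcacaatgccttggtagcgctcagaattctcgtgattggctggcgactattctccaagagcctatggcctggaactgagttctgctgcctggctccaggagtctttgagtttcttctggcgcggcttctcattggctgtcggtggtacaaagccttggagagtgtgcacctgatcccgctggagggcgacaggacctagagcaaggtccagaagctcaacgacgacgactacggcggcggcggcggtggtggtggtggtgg
Parvg promoter, chr15:84324470-84324769, plus strand: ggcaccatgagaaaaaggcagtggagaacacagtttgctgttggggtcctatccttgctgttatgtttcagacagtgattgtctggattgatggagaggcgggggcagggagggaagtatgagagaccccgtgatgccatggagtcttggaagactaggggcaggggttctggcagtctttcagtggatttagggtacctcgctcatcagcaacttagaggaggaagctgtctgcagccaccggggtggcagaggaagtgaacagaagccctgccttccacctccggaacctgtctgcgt
Ctsz promoter, chr2:174438990-174439289, minus strand: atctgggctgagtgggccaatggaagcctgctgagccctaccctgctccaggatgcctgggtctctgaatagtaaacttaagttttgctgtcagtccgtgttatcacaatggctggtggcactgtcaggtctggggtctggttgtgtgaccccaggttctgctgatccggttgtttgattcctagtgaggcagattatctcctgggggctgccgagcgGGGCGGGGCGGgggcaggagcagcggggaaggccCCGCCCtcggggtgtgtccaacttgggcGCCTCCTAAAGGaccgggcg

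The 4 motifs were searched on both strands, and their matches may overlap. The GC box was in windows of 7 of the 10 members and in 47.0% of all 20084 promoter windows. A CTCF core was in 2 of the 10 and in 10.1% of all windows, the ETS motif CCGGAAG in 1 and 11.9%, and the RUNX motif TGTGGTT in 1 and 4.77%. The CTCF core of Ctsz, at chr2:174438998-174439009, lay inside the SMC1A region although no CTCF list had a peak there. The other core, in the promoter of the growth factor gene Btc at chr5:91403201-91403212, lay outside the SMC1A region. The Rec8 and Parvg windows held none of the 4 motifs. These are matches of letters in 300 bases and do not show binding.

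The fold enrichment given by the authors' peak caller is a ratio of pile-up to local background at the summit. At Dennd2d there was no peak in KO cells, and the fold was 7.00 and 6.72 in WT cells. Rec8 likewise had no peak in KO cells and folds of 6.39 and 5.89 in WT cells. Parvg went the other way, with 4.97 and 5.62 in KO cells and no peak in WT cells. At Ctsz, KO replicate 1 had a fold of 4.87 and WT replicate 1 a fold of 6.55, and neither list of batch 2 had a peak. The 4 promoters thus differed in which lists held them. The Dennd2d region was 375 bp from the nearest CTCF peak and the Parvg region 285 bp, whereas the Rec8 and Ctsz regions were 11019 and 22799 bp away.

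Regions without CTCF were seldom at gene starts in any of the 4 lists. Among those in KO lists, 6.09% (95% Wilson interval 3.66 to 9.96) and 4.17% (1.92 to 8.79) lay within 1 kb of a start, and in WT lists 5.20% (3.13 to 8.55) and 4.43% (2.55 to 7.58). SMC1A regions with CTCF lay there in 32.2% and 33.4% of cases in KO lists and in 36.1% and 35.5% in WT lists. The mean difference was -29.3 percentage points, with the 4 lists between -31.0 and -26.1, and the 2 kinds of region did not overlap. An exact two-sided sign-flip test over the 4 lists gave p = 0.13, the smallest p that 4 lists allow. Each region is held by at least 2 of the lists, so the lists share regions and their shares are not independent. With the KO replicate 2 CTCF list alone to define absence, the shortest one, the difference was -3.53 points. KO lists averaged 5.13% and WT lists 4.82%, a difference of 0.311 points (0.882 in batch 1 and -0.261 in batch 2; exact permutation p = 1, smallest possible 0.33). No difference between genotypes was detectable at this size, and its sign was negative without KO replicate 1 (-1.81 points).

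**Figure D1:**
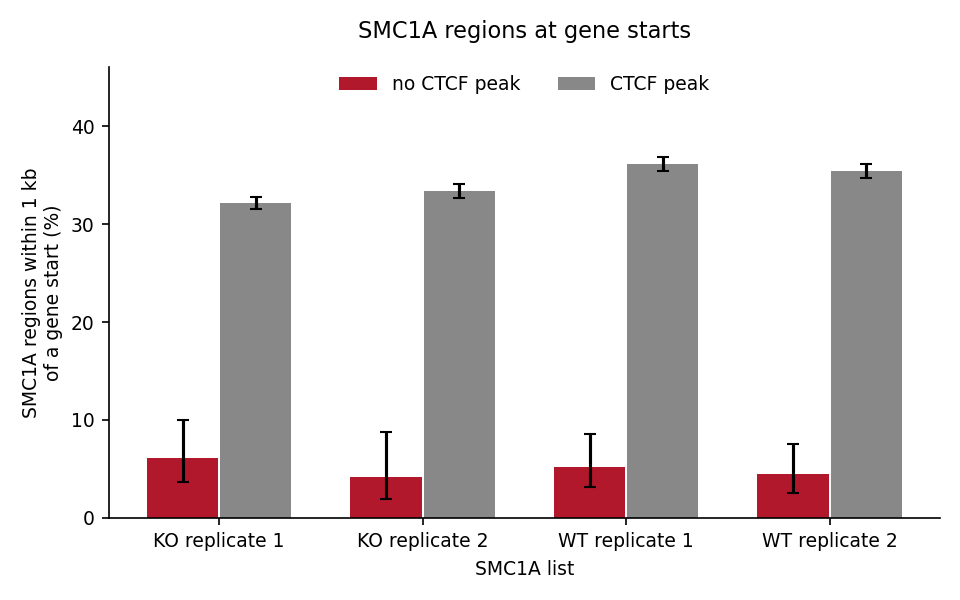
Share of SMC1A regions within 1 kb of an annotated gene start (%), in each SMC1A list, for regions without a CTCF peak (red) and with one (grey). Error bars are 95% Wilson intervals over regions, which cover counting error only; red bars lie between 4.17 and 6.09%, grey bars between 32.2 and 36.1%.

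Most regions lay within genes, and more of them than of the regions with CTCF lay far from any gene. The annotation used here does not separate exons and introns. Inside an annotated protein-coding gene lay 211 of the 367 (57.5%), against 53.0% of regions with CTCF. Farther than 100 kb from any such gene lay 43 (11.7%), against 2.80% of regions with CTCF. Small RNA genes were rare in both kinds of region. A tRNA, snRNA or miRNA gene was overlapped by 0 of the 367, against 0.424, 0.171 and 0.235% of regions with CTCF, and a snoRNA gene by 1 (0.272%), against 0.0737%. A lncRNA gene was overlapped by 46 (12.5%), against 13.5% of regions with CTCF, and a pseudogene by 5 (1.36%), against 0.466%. By chromosome, the share of SMC1A regions that lacked CTCF ran between 0.930% on chromosome 9 and 2.68% on chromosome 16. No test was run on these shares.

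Most of the regions stood alone. Grouped by gaps of up to 100 kb, 326 were single, 26 formed 13 pairs, and 3 groups held 3 or more. One of these was in Satb1, the targeted gene, with 5 regions over chr17:51739897-51809342. Another was in the Speer4 genes, a tract of near-identical copies on chromosome 5, with 3 regions over chr5:15642837-15712126, where reads may not map to 1 place. In all, 196 genes held a region without CTCF, and 7 held at least 2, among them Satb1, Arid1b, Auts2, Ikzf1, Mtor and St8sia1.

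Satb1 (chr17:51736187-51833290), the targeted gene, had 14 SMC1A regions, of which 5 lacked CTCF. KO lists held 2 and 0 of the 5, and both WT lists held all 5. The 9 regions of Satb1 with CTCF were held 8 and 4 times by KO lists and 8 and 9 times by WT lists. KO replicate 2 thus held fewer regions of both kinds. The region chr17:51808937-51809342 had a fold of 6.09 in KO replicate 1, none in KO replicate 2, and 7.99 and 9.43 in WT cells. At chr17:51739897-51740472 it was 4.49 in KO replicate 1, none in KO replicate 2, and 11.8 and 9.32 in WT cells. The other 3 had peaks in no KO list and in both WT lists, and the one at chr17:51805106-51805499 had WT folds of 9.16 and 12.1. The gap to the nearest CTCF peak was 44 bp at chr17:51739897-51740472 and 733 bp at chr17:51808937-51809342. At the other 3 it was 1550, 1814 and 1922 bp, against a median of 9038 bp over all 367 regions. The deletion and an indirect effect of losing SATB1 cannot be told apart at its own gene.

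**Figure D2:**
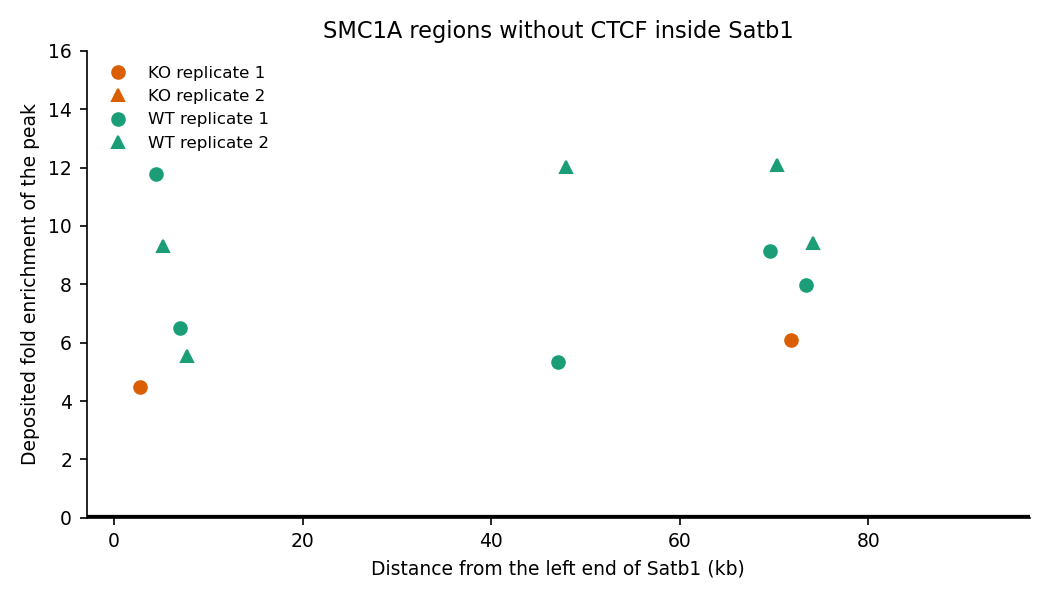
Deposited fold enrichment of SMC1A peaks (y axis) at the 5 regions without CTCF in Satb1, by distance from the left end of the gene in kb (x axis), with points set slightly apart by list. Orange points, all from KO replicate 1, are present at 2 of the 5 regions, and green points from both WT lists at all 5.

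Across all the regions, presence by genotype leaned towards WT lists. KO lists held 235 and 148 of the 367 (64.0 and 40.3%) and WT lists 272 and 274 (74.1 and 74.7%). Regions with CTCF were held the other way round, 94.7 and 80.4% by KO lists and 78.1 and 78.0% by WT lists. In both KO lists and no WT list were 29 regions without CTCF (7.90%; background over all regions of at least 2 lists, 9.91%), and in both WT lists and no KO list 94 (25.6%; background 2.69%). All 4 lists held 59 (16.1%), against 55.4% of regions with CTCF. In batch 1, 81 were in KO alone and 118 in WT alone, against 4534 and 938 of the regions with CTCF. In batch 2, 52 were in KO alone and 178 in WT alone, against 3662 and 3134 of the regions with CTCF. The comparison regions thus also shifted towards WT between batch 1 and batch 2.

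This lean depended on which CTCF lists defined absence. With the KO replicate 1 CTCF list alone, 39 regions were in both KO lists only and 135 in both WT lists only. With the WT CTCF list alone, 975 were in both KO lists only and 204 in both WT lists only. With the KO replicate 2 CTCF list alone the numbers were 1281 and 455, and with CTCF lists cut to equal length, an alternative added after seeing the data, 473 and 245. With WT and KO replicate 2 CTCF together they were 759 and 186, and with WT and KO replicate 1 CTCF together, where 31 were in both KO lists only, regions in both WT lists only were the more numerous, as the plot of exclusion by CTCF list shows. These pairs were also added after seeing the data. The direction thus turned in each set that left out the longest CTCF list, and with CTCF lists cut to equal length. That order stayed with SMC1A and CTCF peaks of −log10 q 5 or more, where the numbers were 16 and 88. That cut shortened the longest CTCF list to 39220 peaks. The CTCF lists also covered the patterns unequally. Of the 2187 regions in both KO SMC1A lists and no WT list, 98.2% overlapped a peak of KO replicate 1 CTCF, 41.4% of KO replicate 2 CTCF and 55.4% of WT CTCF. Of the 594 in both WT lists and no KO list, the shares were 77.3, 23.4 and 65.7%. Of the 12088 in all 4 lists they were 98.8, 83.5 and 97.4%. With CTCF lists of unequal length and 1 WT list, the genotype and the choice of CTCF list cannot be told apart in these counts.

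**Figure D3:**
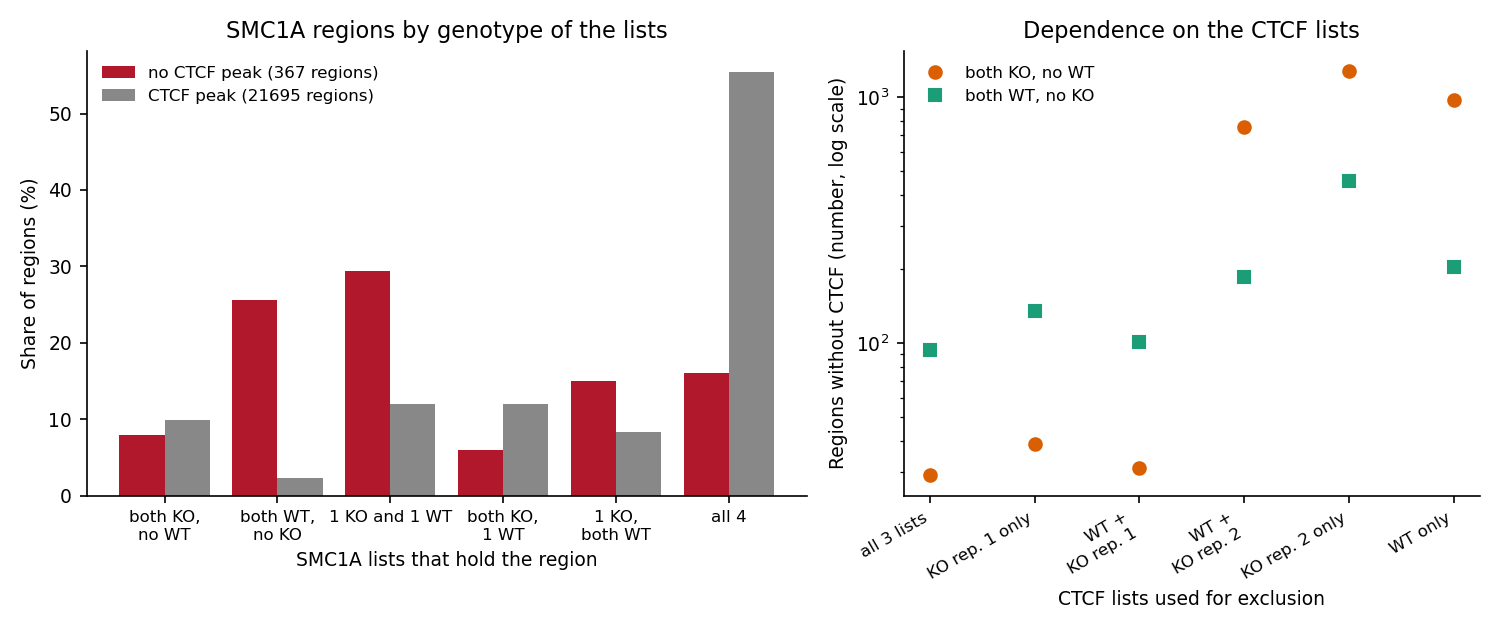
Left, share of SMC1A regions (%) by the lists that hold them, for regions without CTCF (red) and with CTCF (grey). Right, number of regions without CTCF in both KO lists and no WT list (orange) and in both WT lists and no KO list (green) on a log axis, by the CTCF lists used for exclusion; orange lies under green with all 3 lists (29 and 94) and above it with the WT list alone (975 and 204).

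The absence of CTCF was a matter of list and distance. The median gap to the nearest CTCF peak was 9038 bp, with quartiles of 1877.5 and 33030.5 bp. For regions in both KO lists and no WT list the median was 1673 bp. For those in both WT lists and no KO list it was 11710.5 bp. Within 1 kb of a CTCF peak lay 59 (16.1%), within 200 bp 19, and over 100 kb away 38 (10.4%). The closest were 7 bp from a CTCF peak in Il6st, which encodes the cytokine receptor subunit gp130, 13 bp in Smad1 and 20 bp in Nsmce1. Just outside the rule, regions overlapped a CTCF peak by 10 bp on chromosome 15 and by 12 bp in Igf1r and near Edrf1. The share without CTCF fell with the number of SMC1A lists, at 25.5% of regions in 1 list, 4.21% in 2, 1.72% in 3 and 0.488% in 4.

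The regions were narrow and had lower SMC1A folds than regions with CTCF. Median width was 351 bp, against 561 bp for regions with CTCF, and 6.27% were 500 bp or wider, against 60.2%. A band at 340 bp or more and under 370 bp, set after seeing the data, held 140 of the 367 (38.1%), against 5.31% of regions with CTCF, and 62.7% of the 59 in all 4 lists. A second group of narrow peaks was exactly 200 bp wide: 29.8 and 42.6% of the peaks in the regions in KO lists and 24.6 and 29.8% in WT lists, against 3.60 and 7.60% in KO lists and 6.17 and 6.55% in WT lists for regions with CTCF. In the 59 regions of all 4 lists, summits of the 4 lists lay a median of 16 bp apart, against 123 bp with CTCF. Median fold of peaks in the regions was 5.39 and 5.60 in KO lists and 6.33 and 6.38 in WT lists, against 7.96 and 7.12 in KO lists and 7.33 and 7.36 in WT lists for regions with CTCF. The median pile-up, solved from the fold and the p-value, was 10 and 8 fragments in KO lists and 12 and 10 in WT lists, against 16 and 11 in KO lists and 13 and 12 in WT lists for regions with CTCF.

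**Figure D4:**
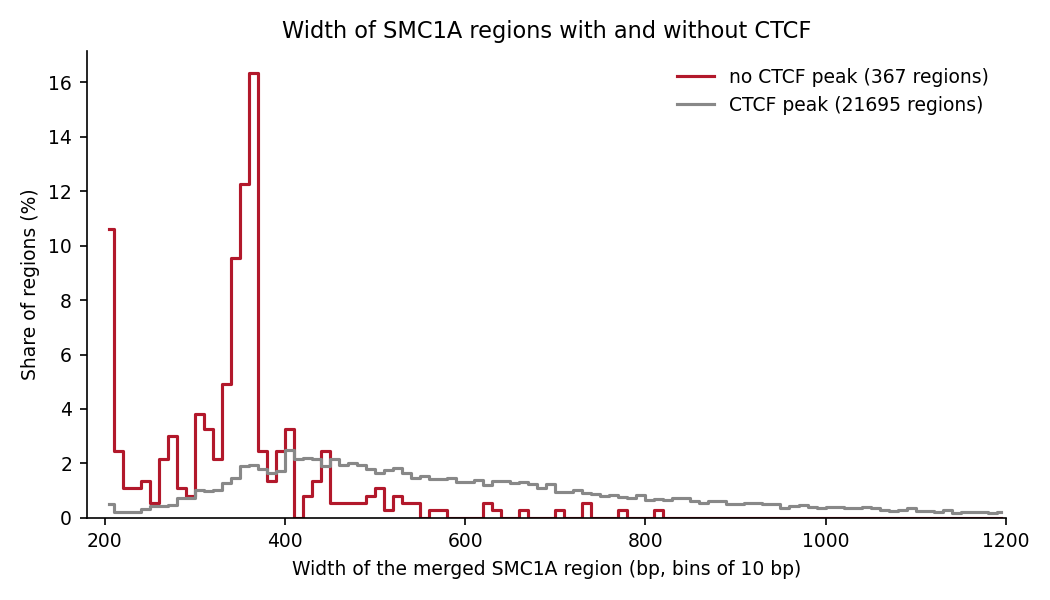
Share of SMC1A regions (%) by width in bins of 10 bp, shown up to 1200 bp, for regions without CTCF (red) and with CTCF (grey). The red line peaks between 340 and 370 bp, where 38.1% of regions without CTCF lie, against 5.31% of regions with CTCF, and it has a second rise at 200 bp.

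A set of 5 regions had a local background of 5 or more fragments, against a median over regions of 0.952 for the highest background of their lists. They lay near Aadac, Tcp10c and Zfp825 (2 regions), and on chromosome 17 away from genes. At Aadac (chr3:60045088-60045900), the widest region at 813 bp, pile-ups were 67 and 53 in KO cells and 78 and 70 in WT cells, yet folds were 2.44 and 2.91 in KO cells and 3.04 and 2.92 in WT cells. The other 4 had peaks in WT lists only. Repeat annotation was not used here.

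Among the 59 regions without CTCF in all 4 lists, 1 changed with genotype. It lies inside Yap1, which encodes the transcriptional coactivator of the Hippo pathway, at chr9:7973710-7974067. Its folds were 49.2 and 28.0 in KO cells and 12.5 and 10.5 in WT cells, with pile-ups of 83 and 39 in KO cells and 19 and 15 in WT cells. Both KO values lay above both WT values. In limma on log2 fold, with each list's median set to 0 and all 12088 regions of 4 lists tested, the KO minus WT difference was 1.59 ± 0.25 (SE; adjusted p = 0.000781, between 5.16e-07 and 0.0309 over the alternatives). The nearest CTCF peak was 68629 bp away.

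Of the 59 regions without CTCF, limma called 1 higher in KO (background 0.174%) and 0 lower (background 0.223%); 16 of the 59 (27.1%) had an unadjusted p under 0.05, against 11.7% of all 12088 regions. Over all regions, 21 were higher and 27 lower, or 11 and 4 when lists were not centred; without KO replicate 2 the numbers were 10 and 57, without WT replicate 1 they were 5 and 1, and without WT replicate 2 they were 12 and 1. The median difference was -0.32 on the log2 scale, against -0.03 over all 12088 regions, and 50 of the 59 (84.7%) were negative, against 53.1% of all. The median was -0.18 without KO replicate 1 and -0.52 without KO replicate 2. Both KO lists lay below both WT lists in 28 (background 22.7%) and above in 1 (background 19%). Most CTCF lists that chose these regions were from KO cells, and the fit was not repeated with the WT CTCF list alone. Whether the choice of CTCF lists bears on this lean was not tested. The nearest to a call lay near Golm2, at chr2:121941758-121942114, with folds of 9.45 and 12.8 in KO cells and 23.8 and 19.8 in WT cells (log2 difference -1.08 ± 0.28 SE, limma adjusted p = 0.0618). With the replicate number as a block, limma called 4 regions lower in KO, among them that one (adjusted p = 0.0110), Mtmr7 (0.0254) and Pdia5 (0.0385).

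**Figure D5:**
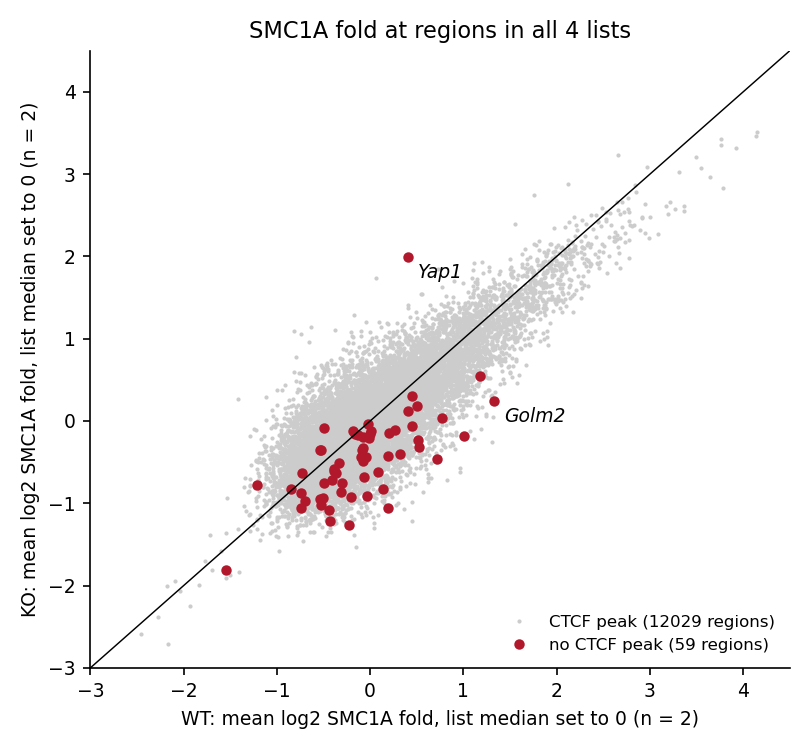
Mean log2 SMC1A fold of the KO lists (y axis) against that of the WT lists (x axis), each list's median set to 0, at the 12088 regions in all 4 lists; the line marks equal values. Red points, the 59 regions without CTCF, lie mostly below the line (50 of 59), and Yap1 lies above it.

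Some regions had strong peaks in 1 genotype only. First by strength, ranked by the second-highest −log10 q of its lists, was one in Gm5591, a predicted gene, at chr7:38525388-38525725, with no peak in KO cells and folds of 30.9 and 29.0 in WT cells. In St8sia1, which encodes the GD3 ganglioside synthase, the region chr6:142937602-142937945 had no peak in KO cells and folds of 14.6 and 26.0 in WT cells. Of the regions in both KO lists and no WT list, the first by the same rank lay at the prion gene Prnp, at chr2:131936496-131937125, with folds of 7.46 and 7.71 in KO cells. Its nearest CTCF peak was 300 bp away. Near Arl15, at chr13:114196528-114196895, the folds were 12.9 and 7.70 in KO cells, and the nearest CTCF peak was 44651 bp away. A region missing from a list can be one that fell short of the caller's threshold, so these are differences of lists and carry no test.

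Other regions among the first 10 by this rank had peaks in both genotypes. Near Rab7, which encodes a GTPase of late endosomes, the region chr6:88054683-88055052 had folds of 8.97 and 7.00 in KO cells and 13.6 and 11.3 in WT cells. In Tmtc1, at chr6:148281901-148282267, they were 9.94 and 11.3 in KO cells and 11.4 and 13.2 in WT cells. Near Sash1, at chr10:8959640-8960009, KO replicate 1 had a fold of 8.79, KO replicate 2 had no peak, and WT cells had 14.4 and 13.2. Both WT folds were above both KO folds near Rab7. In Tmtc1 the deposited folds of KO replicate 2 and WT replicate 1 were close, and with each list's median set to 0 the KO and WT values overlapped. Mtor, which encodes a growth-control kinase, had 2 SMC1A regions, both without CTCF, and the one at chr4:148473218-148473585 had folds of 5.51 and 5.60 in KO cells and 7.52 and 6.58 in WT cells. Auts2 held 2 regions of opposite pattern: chr5:132154754-132155094 had folds of 5.86 and 5.60 in KO cells and no peak in WT cells, and chr5:131820265-131820594 had no peak in KO cells and 6.90 and 5.27 in WT cells.

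Near the genes of the lists, counts of regions without CTCF were small, and over all SMC1A regions of at least 2 lists 1.66% lacked CTCF. The list of lineage transcription factors had 10 of its 199 SMC1A regions without CTCF (5.03%; within 20 kb of its 31 genes), 5 of them in Satb1. The others were 2 in Ikzf1, which encodes Ikaros, and 1 each at Ikzf3 (Aiolos), Foxp1 and Bcl11b, a factor of T cell commitment. Foxp1 was in all 4 lists, with folds of 4.17 and 5.11 in KO cells and 5.07 and 7.17 in WT cells, and Ikzf3 was in both KO lists and no WT list, with 4.81 and 8.31. T cell receptor and coreceptor genes had 4 of 157 (2.55%). Those at Cd247 (the receptor's zeta chain), the chemokine receptor gene Ccr9 and the receptor alpha locus were in both WT lists only. The one near the coreceptor gene Cd8b1 was in 3 lists. At Cd247 the WT folds were 5.64 and 6.01, and the nearest CTCF peak was 116 bp away. That distance was 770 bp for the region near Cd8b1, 1881 bp at the receptor alpha locus and 2437 bp at Ccr9.

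Other lists held 0 to 3 regions without CTCF. Survival genes had 3 of 54 (5.56%), inside Bcl2 and Bcl2l1 and near Bak1, each in 1 KO and 1 WT list. Their nearest CTCF peaks were 634, 615 and 1610 bp away, in that order. Regulatory T cell genes had 1 of 34 (2.94%), near the receptor genes Tnfrsf4 (OX40) and Tnfrsf18 (GITR). Cytokine and effector genes had 1 of 23 (4.35%), at Eomes. Genes of cohesin, CTCF and nuclear architecture had 0 of 59, and housekeeping genes 0 of 52. Marker genes of other cell types had 0 of 18 (B cells), 0 of 10 (myeloid), 0 of 12 (erythroid) and 2 of 15 (13.3%; thymic epithelium, near Aire and Krt14). Genes in tracts of near-identical copies, where read placement is uncertain, had 3 of 22 (13.6%), near Speer4d and inside Speer4c and Slc25a37. No test was run on these counts. The gene lists were drawn up with earlier results known.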

How the data were processed

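Peak lists came from CUT&RUN for SMC1A and CTCF in sorted DP thymocytes, 1 MACS2 list per sample, so peaks were not called on pooled samples. Tools named in the submitters' processing notes are MACS2, Bowtie2, Trimmomatic 1.24, deepTools, R 4.12 and SAMtools, with mm10 as the build. For the settings and the peak-calling control, no source used here gives a value. The deposited lists hold, per peak, a fold enrichment (ratio) and −log10 p and −log10 q values, all from the authors' caller. No read numbers are given, so depth is unknown, no count model was used, and intervals cover counting error only. All columns used were mapped to samples (0 were not).

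The members and gene lists were chosen with earlier results of these data known. Work was done in R 4.3.3 with limma 3.58.1 and in Python 3.11.15 with scipy 1.17.1, pandas 2.3.3 and numpy 2.4.6, and the tests were tested on simulated data. Genes and promoter windows came from RefSeq tables of GRCm38.p6. Gene starts came from the promoter windows, which had none on chromosome 18, so 6 members there were left out of the shares at starts (361 remained). Of 20661 protein-coding genes, 16456 (79.6%) had a start in these windows. Regions at the starts of the other genes were not counted as such, whether with or without CTCF. Strand and sequence came from these promoter windows alone; no exon annotation, whole-genome sequence or repeat annotation was used. A region took the protein-coding gene holding its highest summit, or the nearest within 100 kb. Fold changes were fitted by limma with trend on log2 of the deposited fold, with Benjamini-Hochberg adjustment over 12088 regions and a threshold of 0.05. Pile-up was solved by inverting the Poisson p of the caller together with the fold, and was whole to within 0.001. Named regions were the first by the second-highest −log10 q (among all members, per genotype pattern, per gene list and at starts), the widest, the clusters and the lowest limma p. Replicate numbers match the labels' batches and were used as the block. Deviations of same-numbered samples correlated at only 0.0365 over 12088 regions, so the folds showed little sign of pairing. Alternatives were peaks of −log10 q 5 or more, lists of equal length, other CTCF exclusions and list sets, other list minimums, other start windows, the block, other scalings and leaving out each list. CTCF list pairs, CTCF lists of equal length and either gene end were added after seeing the data, as was the width band. Results at 1 gene are not reported here.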

Additional observations from a re-analysis of the deposited data

How the results depend on the processing

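The number of regions without CTCF rested on the CTCF lists used. It was 367 with all 3 lists, 595 with KO replicate 1 alone, 2785 with WT alone, 7372 with KO replicate 2 alone, 2211 with WT and KO replicate 2, 2236 with CTCF lists of equal length, and 136 in 3 or more SMC1A lists. Leaving out 1 SMC1A list gave 219 to 311 regions. Regions in both KO lists only numbered 16 at −log10 q of 5 or more, 12 with SMC1A lists of equal length, 18 with no CTCF within 1 kb, 975, 1281, 759 and 473 under the WT, KO replicate 2, paired WT and KO replicate 2, and equal-length CTCF lists, and 39 to 41 with 1 list left out. Regions in both WT lists only numbered 204, 455, 186 and 245 under the same CTCF lists, and 106 to 138 with 1 list left out. The KO minus WT number, -65, became 771, 826, 573 and 228 there, and -101 with SMC1A lists of equal length. Within the replicate block it was -37 in batch 1 and -126 in batch 2, against 3596 and 528 for regions with CTCF.

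The difference in the share at gene starts against regions with CTCF was between -32.9 and -29.2 points with 1 list left out and between -33.8 and -23.9 under the other alternatives, except -3.53 with KO replicate 2 CTCF alone; it was negative in each. The KO minus WT share at starts, 0.311 points and the same with the replicate block, turned to -0.896 with equal SMC1A lists, -1.25 with no CTCF within 1 kb, -1.65 with WT CTCF alone and -3.96 with KO replicate 2 CTCF alone, and was -1.81 to 0.95 with 1 list left out. The causes were not tested.

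In limma, members lower in KO numbered 4 with the replicate block, 3 on log2(fold + 1) and 0 to 1 with 1 list left out; 1 was higher throughout. All regions higher in KO numbered 64 with the block, 11 uncentred, 13 after quantile normalisation, 40 on log2(fold + 1), 10 at −log10 q of 5 or more and 5 to 14 with 1 list left out. All regions lower numbered 96, 4, 4, 47 and 11 in the same order, and 1 to 57. The members' median log2 difference was -0.52 to -0.18 with 1 list left out. The block changed no other call at the members. With fewer lists, the lone sample of a genotype was assumed to vary like the other. What limits these results is 2 lists per genotype, list lengths and the lack of a second WT CTCF list here; depth was unknown. Gene-list counts moved in 7 cases when the distance to genes was changed.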
